A study of Arabidopsis thaliana with 12 samples.

Results

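Plant U-box (PUB) genes encode ubiquitin ligases, and 9 of them could be followed in Arabidopsis thaliana seedlings with induced or constitutive activity of the floral regulator LEAFY. Members were taken by name, as the probe sets annotated to a single gene whose symbol is PUB followed by a number. They make up 9 of 22746 tested probe sets. The family itself was chosen with earlier results of these data known, which limits every comparison of its counts with all probe sets. The members were PUB15 (AT5G42340), PUB19 (AT1G60190), PUB22 (AT3G52450), PUB23 (AT2G35930), PUB24 (AT3G11840), PUB25 (AT3G19380), PUB26 (AT1G49780), PUB43 (AT1G76390) and PUB49 (AT5G67530), each read by 1 probe set. A further 13 loci with such a symbol had no probe set named here and were not analysed. Total RNA came from whole seedlings at 9 days of age, with 2 arrays in each of 6 groups and 1 array of every group in each of 2 lots. In 4 groups the seedlings carried LEAFY-GR, in which LEAFY is joined to a glucocorticoid receptor domain and becomes active once the synthetic steroid dexamethasone is given. Those groups were sampled at 8 h after a mock treatment, dexamethasone, cycloheximide (an inhibitor of protein synthesis) or both agents. The remaining groups were untreated, 1 of 35S::LFY seedlings, which express LFY from the constitutive 35S promoter, and 1 of Landsberg erecta seedlings. The labels name neither the promoter nor the accession behind LEAFY-GR, no seedlings without LEAFY-GR received dexamethasone or cycloheximide in the samples analysed here, and nothing says whether paired arrays of a group used seedlings grown apart. The p-values thus reflect only how far these samples varied, which may be technical spread.

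Ubiquitin is attached to proteins by a relay of an activating enzyme (E1), a conjugating enzyme (E2) and a ligase (E3) that selects the substrate, and many tagged proteins are then degraded by the 26S proteasome. The U-box is a domain of the ligase that docks the E2, and the plant family is much larger than that of animals, most members pairing the U-box with armadillo repeats that bind the substrate. PUB22, PUB23 and PUB24 are known as joint brakes on immunity triggered by microbial patterns, and PUB22 and PUB23 also on drought responses. PUB25 and PUB26 are known to mark the immune kinase BIK1 for degradation. PUB19 is known as a negative regulator of drought and abscisic acid responses. PUB49 joins a U-box to a cyclophilin domain.

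The shoot genes RCA and LHCB4.1 had a summed intensity of 8543.1 to 15797.2 over the arrays, and the root hair genes EXPA7 and EXPA18 one of 55.1 to 224.4. None of the listed flower genes had a named probe set. Median intensities ran from 49.8 to 69.4, the correlation of replicate arrays (log2 scale) was 0.959 to 0.979, and 15% to 17.7% of the values of an array were below 10, the pseudocount added before taking log2. Calls required an adjusted p under 0.05 (limma, Benjamini-Hochberg adjustment over every tested probe set), and errors of log2 changes are standard errors of that fit. Changes are on the log2(intensity + 10) scale, which understates those of dim probe sets. Because RNA came from whole seedlings, fewer cells of a type and less RNA per cell cannot be told apart in any value that follows.

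PUB22, PUB23 and PUB24 rose 12.2-fold to 38.3-fold with cycloheximide, and PUB19 and PUB26 rose less. Of all probe sets 42.8% were called there, 17.2% higher. PUB23 was the member called with dexamethasone against mock, where 0.475% of all probe sets were called. That call was lost under some other settings and when some arrays were left out. No member was called with both agents against cycloheximide or in 35S::LFY seedlings, where 0.193% and 0.295% of all probe sets were called. Between mock LEAFY-GR seedlings and untreated Landsberg erecta, PUB22 was the member called, higher in the former. There 7.82% of all probe sets were called, 4% higher.

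**Figure D1:**
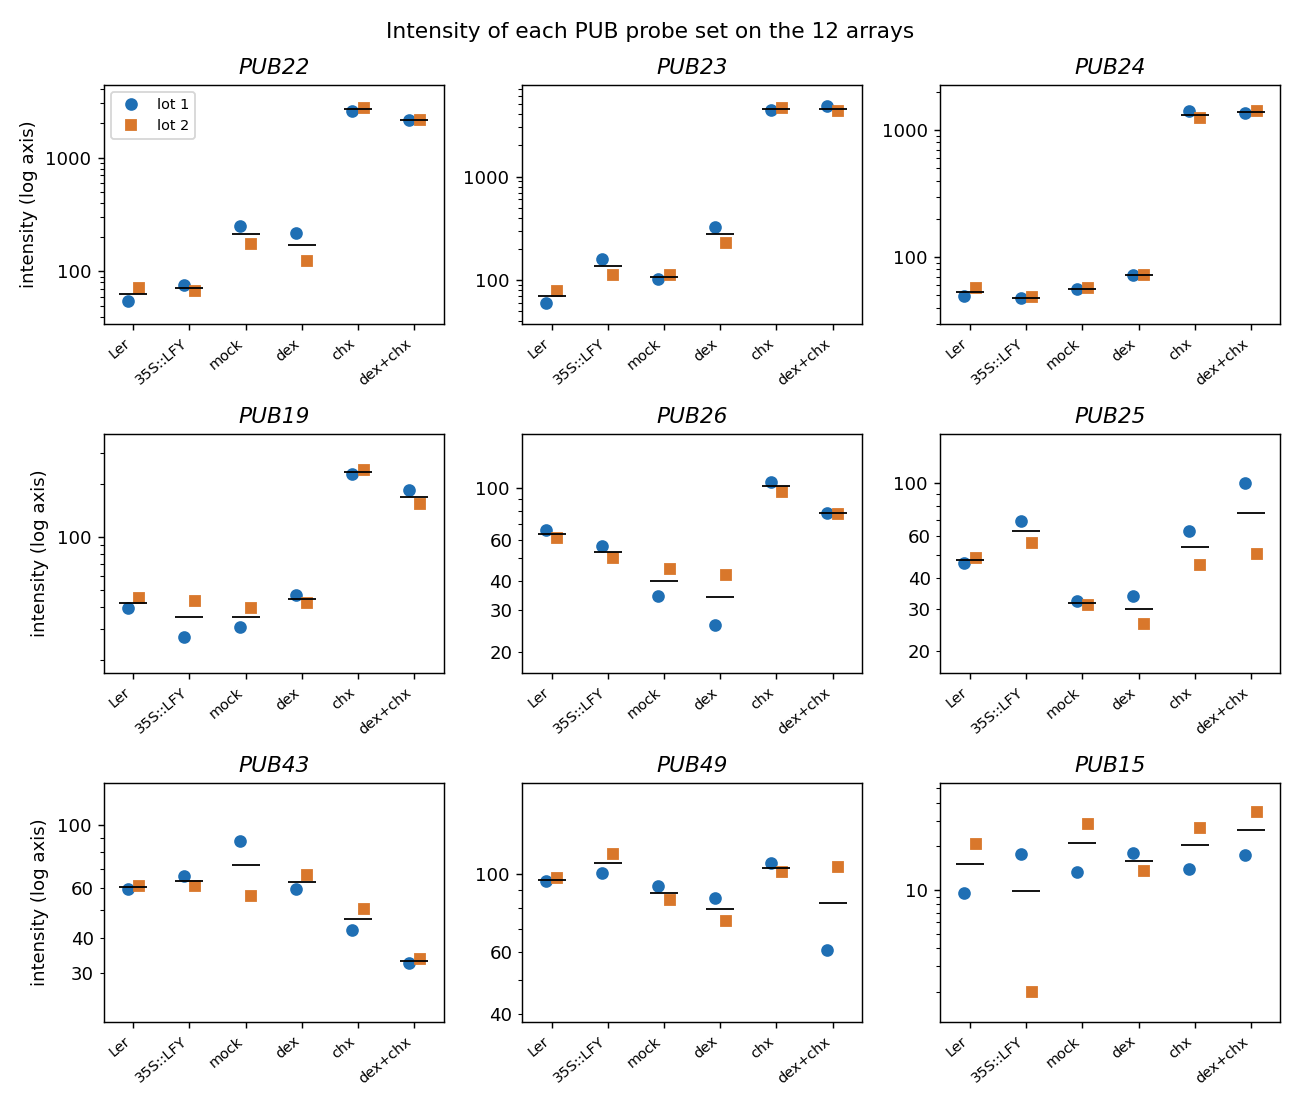
Intensity (log axis) of the 9 PUB probe sets in the 6 groups, with lot 1 as circles, lot 2 as squares and the group mean as a bar. PUB22, PUB23, PUB24 and PUB19 stand far higher on the 4 arrays with cycloheximide, at 154.7 or more for PUB19 against 47 or less on its other arrays.

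Dexamethasone against mock asks which transcripts respond to dexamethasone in LEAFY-GR seedlings. No seedlings without LEAFY-GR received it, so an effect of the steroid itself cannot be told apart from that of activated LEAFY-GR. PUB23 read 323 and 229.8 with dexamethasone (lots 1 and 2, here and in the pairs of values that follow) and 102.8 and 112.8 in mock. Both dexamethasone arrays lay above both mock arrays, and the change of 1.26 ± 0.20 log2 (2.4-fold, n = 2 arrays a group, adjusted p = 0.0174) passed the test. It measured 1.56 in lot 1 and 0.97 in lot 2, and 65 of the 22746 probe sets rose more. The call was lost with arrays scaled to equal medians (1.13, adjusted p = 0.0878) and with the variance moderated without an intensity trend (adjusted p = 0.0757). It was also lost without dexamethasone replicate 1 (1.03, adjusted p = 0.125), mock replicate 1 (1.2, adjusted p = 0.118) or mock replicate 2 (1.33, adjusted p = 0.103). The log2 change stayed between 1.03 and 1.5 in all 19 alternative fits.

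PUB23 was 1 member called of 9, against 0.475% of all probe sets called in this comparison (0.215% higher and 0.259% lower). The split over all probe sets was 49 higher and 59 lower, or 29 and 67 with arrays scaled to equal medians. PUB24 read 72.2 and 72.1 with dexamethasone against 55.9 and 57.1 in mock. The groups did not overlap, but its log2 change of 0.31 ± 0.14 had an unadjusted p of 0.0495 and an adjusted p of 0.655. PUB22, the third gene of the immune trio, read 216.3 and 122.5 with dexamethasone against 248.6 and 173.3 in mock. Its groups overlapped, and the value was below mock in both lots (-0.33 ± 0.23 log2, adjusted p = 0.823). PUB19 had 0.27 ± 0.24, with 47 and 42.4 against 31 and 39.8, and these groups did not overlap either. The log2 changes of PUB15, PUB25, PUB26, PUB43 and PUB49 lay between -0.22 and -0.07 (adjusted p from 0.919 to 0.986). The median over the 9 members was -0.14 and over all probe sets 0.07, and 3 of the 9 had groups that did not overlap with dexamethasone higher, as did 26% of all probe sets. The 3′ to 5′ ratio of the GAPDH control, a measure of RNA quality, was higher with dexamethasone than in mock in both lots (1.58 against 1.52 and 1.47 against 1.36) and that of actin was lower (5.36 against 7.69 and 4.21 against 5.88). On a second set of control probe sets both were higher with dexamethasone in both lots. Their part in the PUB23 value was not tested.

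With cycloheximide present, the comparison asks which transcripts respond to dexamethasone while protein synthesis is inhibited. How complete the inhibition was in these seedlings was not measured here. PUB23 read 4805 and 4280.2 with both agents and 4384.8 and 4619.2 with cycloheximide alone. The groups overlapped, the values went opposite ways in the lots (0.13 and -0.11), and the log2 change was 0.01 ± 0.20 with a 95% confidence interval from -0.42 to 0.44 (adjusted p = 1). PUB24 was close in both groups as well, at 1374.4 and 1417.3 against 1406.7 and 1238.8 (0.08 ± 0.14, interval from -0.22 to 0.38). PUB22 read 2148.5 and 2138.8 against 2584 and 2726.6, lower in both lots without overlap, and PUB19 read 184.6 and 154.7 against 229.1 and 240.8. Neither passed, with -0.31 ± 0.23 (unadjusted p = 0.216) and -0.45 ± 0.24 (unadjusted p = 0.0828). PUB26 and PUB43 also lay lower without overlap (-0.34 ± 0.25 and -0.39 ± 0.25), which made 4 such members of 9, against 14.5% of all probe sets. limma called 0 of the 9 members, and 0 had an unadjusted p under 0.05, which 1401 of all 22746 probe sets had. Of all probe sets 0.193% were called (0.136% higher and 0.0572% lower), 31 higher and 13 lower, or 27 and 4 with arrays scaled to equal medians.

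**Figure D2:**
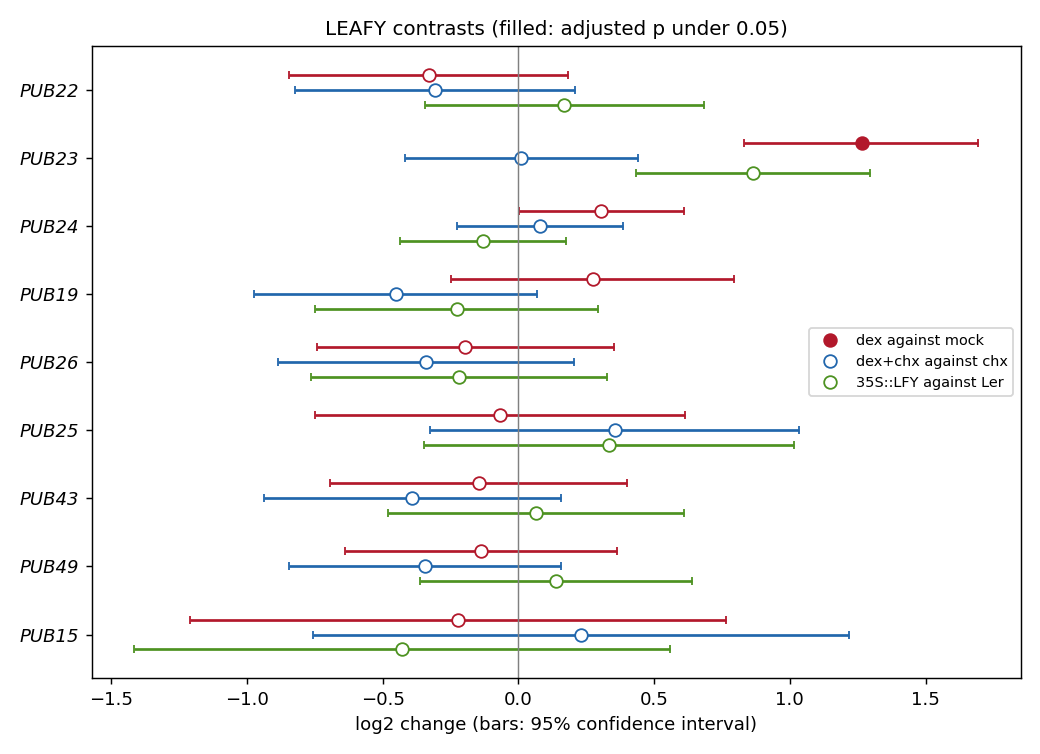
Log2 change of each PUB gene in the 3 comparisons on LEAFY, with 95% confidence intervals as bars and filled points where the adjusted p was under 0.05. PUB23 stands at 1.26 with dexamethasone, 0.01 with dexamethasone and cycloheximide and 0.87 in 35S::LFY, and its first change is the single filled point.

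Whether cycloheximide altered the dexamethasone response was tested directly on the log2 scale, as the response with the inhibitor minus the response without it. For PUB23 it was -1.25 ± 0.28 log2 (95% confidence interval from -1.86 to -0.64), and it was negative in both lots (-1.43 and -1.08). By unadjusted p (0.000819) it ranked 43 among the 22746 probe sets, and it did not pass over all of them (adjusted p = 0.407, and 0.272 to 0.767 over the 19 alternatives). PUB23 already read 4384.8 and 4619.2 with cycloheximide alone, against 102.8 and 112.8 in mock. The same gain in intensity is a far smaller log2 change from the higher level. A lost response and an unchanged gain in intensity thus cannot be told apart here. PUB19 had -0.73 ± 0.34, also negative in both lots (adjusted p = 0.972). For the other members the difference lay between -0.25 and 0.45, so 0 of 9 were called with limma, and PUB23 alone had an unadjusted p under 0.05. Over all 22746 probe sets 1168 had such a p. Of all probe sets 0.0308% were called (0.0264% higher and 0.0044% lower), 6 higher and 1 lower, or 2 and 0 with arrays scaled to equal medians.

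The 35S::LFY seedlings show constitutive LFY against Landsberg erecta, and this comparison shares no array with the other LEAFY comparisons. PUB23 read 159.3 and 112 in 35S::LFY against 60.2 and 78.7 in Landsberg erecta. Its groups did not overlap and the change was positive in both lots (1.27 and 0.46). At 0.87 ± 0.20 log2 (95% confidence interval from 0.43 to 1.3) it had an unadjusted p of 0.000979 but did not pass over all probe sets (adjusted p = 0.153, and 0.101 to 0.964 over the 19 alternatives). PUB22 read 75.9 and 67.6 against 55.2 and 70.8, with overlap (0.17 ± 0.23). PUB24 read 47.7 and 48.2 against 49.6 and 57.5 (-0.13 ± 0.14), on the other side of zero from its dexamethasone value. PUB25 read 69.3 and 56.3 against 46.3 and 48.8 (0.33 ± 0.31, interval from -0.35 to 1.01), and PUB26 56.7 and 50 against 66.1 and 61.2 (-0.22 ± 0.25). For PUB43, PUB49, PUB19 and PUB15 the log2 changes were 0.07, 0.14, -0.23 and -0.43. With limma 0 of the 9 were called and 1 had an unadjusted p under 0.05, against 0.295% of all probe sets called (0.171% higher and 0.123% lower), 39 higher and 28 lower, or 25 and 9 with arrays scaled to equal medians. An unadjusted p under 0.05 was found for 1361 of all 22746 probe sets. Groups that did not overlap were found for 4 members with 35S::LFY higher and 2 with it lower, and for 16% and 22.3% of all probe sets. The GAPDH ratio was lower in 35S::LFY in both lots (1.62 against 1.71 and 1.69 against 2.13), as were the summed root markers (140.5 against 178.2 and 179.2 against 224.4), of which neither was called. Their part in these values was not tested.

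Cycloheximide against mock gave the largest changes of the family. PUB23 rose from 102.8 and 112.8 in mock to 4384.8 and 4619.2, a log2 change of 5.26 ± 0.20 (38.3-fold, adjusted p = 4.72e-09). PUB24 rose from 55.9 and 57.1 to 1406.7 and 1238.8 (4.32 ± 0.14, 20-fold, adjusted p = 2.9e-09), and PUB22 from 248.6 and 173.3 to 2584 and 2726.6 (3.61 ± 0.23, 12.2-fold, adjusted p = 2.42e-07). In each of these genes every cycloheximide array was far above every array without the drug. The changes in lots 1 and 2 were 5.28 and 5.24 for PUB23, 4.43 and 4.22 for PUB24, and 3.33 and 3.90 for PUB22. Only 134 probe sets of the array rose more than PUB23, 270 more than PUB24 and 456 more than PUB22.

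PUB19 rose from 31 and 39.8 to 229.1 and 240.8 (2.44 ± 0.24, 5.42-fold, adjusted p = 5.95e-06, lots 2.54 and 2.33). The BIK1 ligase genes PUB25 and PUB26 differed in their calls. PUB26 rose from 34.7 and 45.2 to 106.3 and 96.4 (1.16 ± 0.25, adjusted p = 0.00244, lots 1.38 and 0.95). PUB25 read 62.8 and 45.6 against 32.3 and 31, without overlap, but 0.61 ± 0.31 did not pass (adjusted p = 0.141), and whether the changes of PUB25 and PUB26 differ was not tested. PUB43 read 42.5 and 50.6 against 87.8 and 56.3, lower without overlap (-0.51 ± 0.25, adjusted p = 0.124), and PUB49 107.5 and 101.2 against 92.6 and 84.4 (0.22 ± 0.23, adjusted p = 0.502). PUB15 read 14 and 26.7 against 13.3 and 28.6, levels near the pseudocount, and its interval from -1 to 0.97 leaves its direction unknown.

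In total 5 of 9 members were called, all higher, against 42.8% of all probe sets called in this comparison, 17.2% higher and 25.6% lower. The median log2 change was 1.16 over the 9 members and -0.03 over all probe sets. Groups did not overlap for 7 members with cycloheximide higher and 1 with it lower, and for 30.1% and 36.8% of all probe sets. The same 5 genes were called under each of 7 other settings and in each of 12 fits that left out 1 array. The summed shoot markers were lower with cycloheximide (8543.1 and 9954.3 against 11083.9 and 15797.2 in mock), as were the root markers (55.1 and 80.3 against 97 and 123.5). LHCB4.1 and EXPA18, 1 of 2 markers in each list, were called lower. The GAPDH ratio was lower as well (1.28 against 1.52 and 1.09 against 1.36). Their part in the PUB values was not tested.

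**Figure D3:**
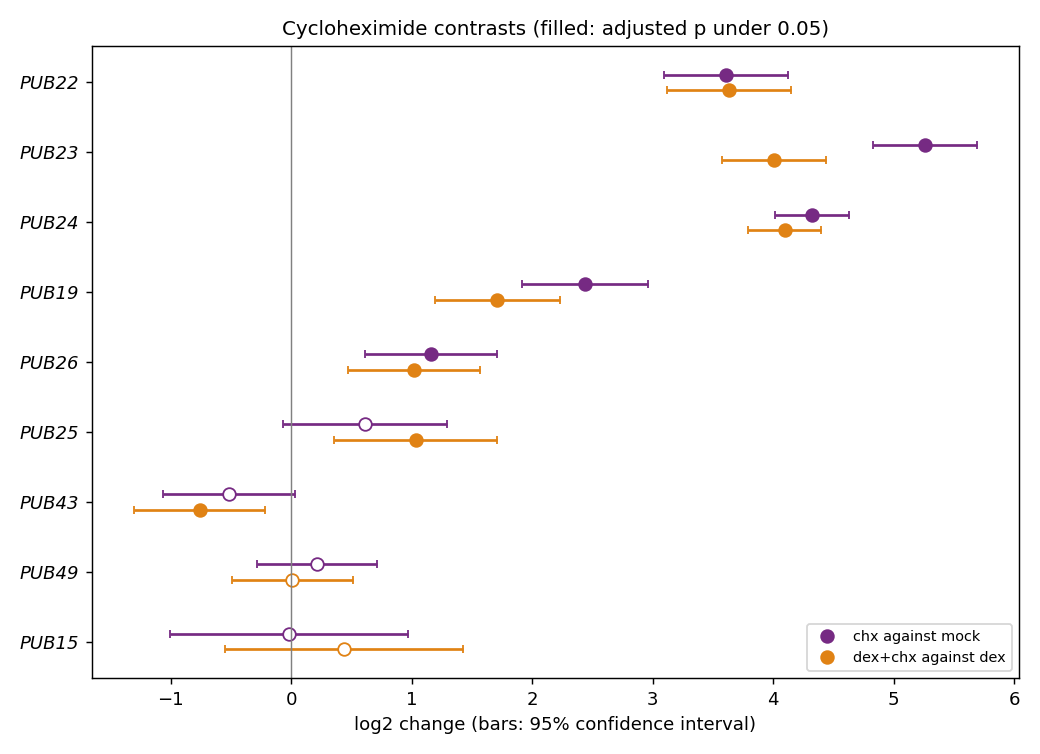
Log2 change of each PUB gene with cycloheximide, against mock and, in seedlings also given dexamethasone, against dexamethasone alone, with 95% confidence intervals as bars and filled points where the adjusted p was under 0.05. PUB22, PUB23 and PUB24 stand between 3.61 and 5.26 in both comparisons, and the changes of PUB23 are 5.26 and 4.01.

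The effect of cycloheximide was also measured while LEAFY-GR was active, on arrays that the comparison with mock does not use. PUB24 rose by 4.1 ± 0.14 log2 over dexamethasone alone, PUB23 by 4.01 ± 0.20, PUB22 by 3.64 ± 0.23, PUB19 by 1.71 ± 0.24 and PUB26 by 1.02 ± 0.25 (adjusted p from 3.49e-09 to 0.00597). PUB25 rose here, from 33.9 and 26 to 99.6 and 50.4 (1.03 ± 0.31, adjusted p = 0.0188). That call was lost without the array of both agents in lot 1 (0.60, adjusted p = 0.198) or the dexamethasone array in lot 2 (0.89, adjusted p = 0.108). PUB43, a close relative of the senescence-associated ligase SAUL1, fell from 59.5 and 66.3 to 32.5 and 33.6 (-0.76 ± 0.25, adjusted p = 0.0294). Its call was lost with arrays scaled to equal medians (-0.56, adjusted p = 0.0892) and when any of the 4 arrays compared was left out (adjusted p from 0.0689 to 0.132), and that of PUB26 was lost without dexamethasone replicate 1 (0.75, adjusted p = 0.0591). PUB49 (0.01 ± 0.23) and PUB15 (0.44 ± 0.45) were not called.

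In this comparison 6 of 9 members were called higher and 1 lower, against 40.6% of all probe sets called, 14.4% higher and 26.2% lower. Groups did not overlap for 6 members in the higher and 1 in the lower direction, and for 24.6% and 41.9% of all probe sets. Over all probe sets the calls were 3280 higher and 5959 lower, or 3984 and 4379 with arrays scaled to equal medians. That scaling moved the median change of all probe sets from -0.17 to -0.01, and the median over the 9 members was 1.03 without it. Relative to the median of all probe sets PUB43 thus fell by less than its measured change. The PUB23 rise was smaller here than against mock by the difference given above, which did not pass over all probe sets. The GAPDH ratio was lower with both agents than with dexamethasone alone (1.21 against 1.58 and 0.978 against 1.47). The summed shoot markers were lower with both agents (10498.5 and 9576.8 against 11525.1 and 13898.2), as were the root markers (69.1 and 72.5 against 94.7 and 125.2), and none of these 4 genes was called. Their part in the PUB values was not tested.

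Mock-treated LEAFY-GR seedlings differed from untreated Landsberg erecta seedlings in the transgene and in the treatment, which cannot be told apart. PUB22 rose from 55.2 and 70.8 in Landsberg erecta to 248.6 and 173.3 in mock, without overlap (1.59 ± 0.23 log2, 3-fold, adjusted p = 0.00148, lots 1.99 and 1.18). That call was made in all 19 alternative fits. PUB23 read 102.8 and 112.8 against 60.2 and 78.7, higher without overlap, but 0.58 ± 0.20 did not pass (adjusted p = 0.111). PUB24 read 55.9 and 57.1 against 49.6 and 57.5, with overlap (0.07 ± 0.14). PUB26 lay lower in mock without overlap, at 34.7 and 45.2 against 66.1 and 61.2 (-0.57 ± 0.25, adjusted p = 0.224), as did PUB25 at 32.3 and 31 against 46.3 and 48.8 (-0.47 ± 0.31, adjusted p = 0.47). The log2 changes of PUB15, PUB19, PUB43 and PUB49 lay between -0.21 and 0.29. So 1 of 9 members was called, higher, against 7.82% of all probe sets called, 4% higher and 3.82% lower. Groups did not overlap for 2 members with mock higher and 3 with it lower, and for 18.5% and 32.7% of all probe sets. The calls over all probe sets were 910 higher and 869 lower, or 1095 and 388 with arrays scaled to equal medians, which moved the median of all probe sets from -0.10 to 0.04. The summed root markers were lower in mock (97 and 123.5 against 178.2 and 224.4), and neither of the 2 was called. The GAPDH ratio was lower in mock as well (1.52 against 1.71 and 1.36 against 2.13), also on the second control set (1.12 against 1.27 and 0.974 against 1.3). That of actin was lower in mock in lot 1 (7.69 against 9.02) and higher in lot 2 (5.88 against 4.33). On the second set actin was lower in mock in both lots. Their part in the PUB22 value was not tested.

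Ordered by mean intensity, PUB22 was highest with cycloheximide (2655 ± 101, SD, n = 2), then with both agents (2144 ± 6.86), in mock (211 ± 53.2) and with dexamethasone (169.4 ± 66.3), and lowest in 35S::LFY (71.8 ± 5.87) and Landsberg erecta (63 ± 11). Mock and dexamethasone overlapped, as did the last 2 groups, while the other neighbours did not. PUB23 had another order, with both agents (4543 ± 371) and cycloheximide (4502 ± 166) overlapping, then dexamethasone (276.4 ± 65.9), 35S::LFY (135.6 ± 33.4), mock (107.8 ± 7.07) and Landsberg erecta (69.5 ± 13.1). Among these only 35S::LFY and mock also overlapped. PUB24 was highest with both agents (1396 ± 30.3) and cycloheximide (1323 ± 119), which overlapped, and ran from 72.2 ± 0.0707 with dexamethasone down to 48 ± 0.354 in 35S::LFY. PUB26 was highest with cycloheximide (101.4 ± 7) and lowest with dexamethasone (34.2 ± 11.5), and its levels in Landsberg erecta (63.7 ± 3.46) and 35S::LFY (53.4 ± 4.74) lay between both agents (77.9 ± 0.566) and mock (40 ± 7.42), and only mock and dexamethasone overlapped. PUB19 was highest with cycloheximide (235 ± 8.27), then with both agents (169.6 ± 21.1), and each of its other groups, with means from 35.35 to 44.7, overlapped its neighbours in the order but dexamethasone did not overlap mock. PUB25 ran from 75 ± 34.8 with both agents down to 47.55 ± 1.77 in Landsberg erecta with every neighbour overlapping, and stood apart below in mock (31.65 ± 0.919) and dexamethasone (29.95 ± 5.59), which overlapped. PUB43 was lowest with both agents (33.1 ± 0.778) and next with cycloheximide (46.6 ± 5.73), while each of its other groups, with means from 60.2 to 72.1, overlapped its neighbours in the order but 35S::LFY did not overlap Landsberg erecta. PUB49 ranged from 79.8 with dexamethasone to 107.3 in 35S::LFY, with Landsberg erecta (96.45) overlapping neither cycloheximide above it nor mock below it. All neighbouring groups of PUB15 overlapped, between 9.85 in 35S::LFY and 25.9 with both agents.

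Likeness between profiles was measured as the root mean square difference of log2 values over the 12 arrays after each gene was centred on its mean. Among the members PUB43 and PUB49 were nearest (0.36), followed by PUB25 and PUB26 (0.40), PUB49 with PUB26 and PUB25 (0.48 and 0.49), and PUB22 and PUB24 (0.53). PUB23 lay at 0.57 from PUB24 and 0.68 from PUB22, and at 2.71 from PUB43, the widest gap in the family. The profile nearest to PUB23 among 1542 other probe sets with a symbol was that of AR781 (0.44), then the stress transcription factor gene BZIP60 (0.50) and the xyloglucan enzyme gene XTH18 (0.61). BZIP60 was also among the 3 nearest to PUB24 (0.22, with HEMA2 at 0.19 and MSRB9 at 0.25) and PUB22 (0.46, with UGT71B6 at 0.43 and ChiC at 0.45). PUB19 was nearest to ATGSTF13 (0.23), YLS5 (0.26) and SGP2 (0.26). For PUB26 these were the actin gene ACT11 (0.19), TBL45 (0.23) and LSM1B (0.24), for PUB25 GSA1 (0.28), THE1 (0.29) and IDH-VI (0.30), and for PUB43 the ubiquitin protease gene UBP18 (0.12), COS1 (0.16) and ETFALPHA (0.17). All these distances share the 12 arrays and the cycloheximide effect. They are not scaled for amplitude, so genes that change little lie close together whatever their direction. PUB43 and PUB49 had cycloheximide changes on other sides of zero (-0.51 and 0.22 against mock, neither called).

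Other genes of the ubiquitin system were read from lists chosen by symbol. Of 13 E2 genes, 0 rose and 9 fell with cycloheximide, among them UBC19 (-2.32 ± 0.20), UBC28 (-1.34 ± 0.14), UBC20 (-1.33 ± 0.18) and UBC30 (-1.10 ± 0.16), and the list's median was -0.78. Of 10 other ligase or ligase-scaffold genes, 2 rose, RHF1A (2.06 ± 0.29) and the SKP1-like SK15 (1.34 ± 0.32), and 3 fell, ATL8 (-2.35 ± 0.25), ATL63 (-1.09 ± 0.26) and XERICO (-0.65 ± 0.16), with a median of 0.07. SK15 in mock (2 and 3.4) and ATL63 with cycloheximide (6.4 and 7.3) read below the pseudocount. RPN12a, the proteasome lid subunit that PUB22 and PUB23 are known to ubiquitinate, was the single measured proteasome gene and fell by 0.96 ± 0.12 (adjusted p = 5.58e-05). BIK1 rose with cycloheximide, from 555.3 and 477.4 to 2395.9 and 3035.3 (2.37 ± 0.16, adjusted p = 3.65e-07). All these are RNA values, and neither the ligases nor their target proteins were measured. The early immunity list had 3 measured members and all rose, the transcription factor genes WRKY53 (3.58 ± 0.42) and WRKY22 (2.47 ± 0.15) and the receptor kinase gene EFR (3.09 ± 0.34), whose mock values of 4.3 and 5.4 were below the pseudocount. Of 2 drought or abscisic acid genes, COR47 fell (-3.37 ± 0.23) and COR15A had -0.35 ± 0.42. These are read against 17.2% of all probe sets called higher and 25.6% called lower.

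**Figure D4:**
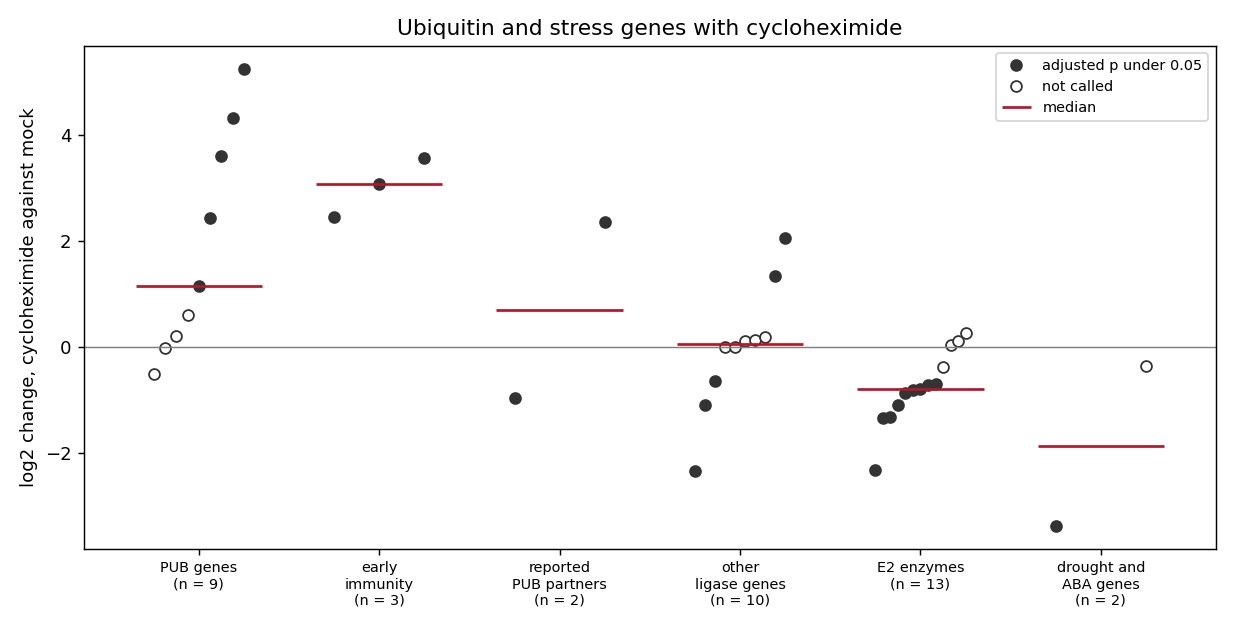
Log2 change with cycloheximide against mock for the 9 PUB genes and 5 lists of other genes, 1 point a probe set, filled where the adjusted p was under 0.05, with the median as a line. The PUB median is 1.16, that of the 13 E2 genes -0.78 and that of the 10 other ligase genes 0.07.

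With both agents against dexamethasone alone, 9 of the 13 E2 genes fell, against 26.2% of all probe sets called lower and 14.4% higher. The falling E2 genes included UBC19 (-2.09 ± 0.20), UBC28 (-1.36 ± 0.14), UBC20 (-1.38 ± 0.18) and UBC18 (-1.21 ± 0.17), while UBC16 rose (0.51 ± 0.14). Of the 10 other ligase genes RHF1A rose (1.84 ± 0.29), and ATL8 (-2.83 ± 0.25) and XERICO (-0.88 ± 0.16) fell. SK15 (0.30 ± 0.32) and ATL63 (-0.63 ± 0.26) were not called here. RPN12a (-0.68 ± 0.12) and COR47 (-3.165 ± 0.23) fell as well. BIK1 (2.33 ± 0.16) and the 3 immunity genes (2.20 to 4.07) rose there too. In the 3 LEAFY comparisons limma called none of the 13 E2 genes, the 10 other ligase genes, RPN12a, BIK1, the 3 immunity genes and the 2 drought genes. Among these 30 genes, 1 lower had an unadjusted p under 0.05 with dexamethasone, 3 higher with both agents against cycloheximide, and 1 in each direction in 35S::LFY. Over all 22746 probe sets 1732, 1401 and 1361 had such a p in these comparisons, in either direction. In mock-treated LEAFY-GR against Landsberg erecta, BIK1 rose from 162.3 and 171.6 to 555.3 and 477.4 (1.57 ± 0.16, adjusted p = 0.000124). WRKY22 rose as well, from 47.7 and 40.7 to 187.5 and 207.7 (1.94 ± 0.15, adjusted p = 2.12e-05), while WRKY53 (-0.07 ± 0.42) and EFR (-0.13 ± 0.34) were not called. The E2 genes UBC16 (1.31 ± 0.14) and UBC19 (0.76 ± 0.20) and the ligase gene ATL8 (2.19 ± 0.25) also rose in mock, and COR15A fell (-2.30 ± 0.42). With BIK1 and WRKY22 these made 6 called of the 30 genes, among them 2 of 13 E2 genes and 1 of 10 other ligase genes. Of all probe sets 7.82% were called in this comparison, 4% higher and 3.82% lower.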

How the data were processed

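Each of 12 Affymetrix arrays gave 22810 probe set values, deposited as linear intensities by the authors (software not given in the sources used here). Judging from the values, the arrays had already been scaled, with a mean of 150.01 to 150.02 on each array after trimming 2% from each end, so they were used as they stand. The number of arrays limits the precision. After 64 control probe sets were left out, log2(intensity + 10) was fitted with limma 3.58.1 in R 4.3.3, with 1 mean per group over all 12 arrays, 6 residual degrees of freedom, an intensity trend and Benjamini-Hochberg adjustment over 22746 probe sets in each of 7 contrasts. The fit was tested on simulated data.

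Probe sets were named through the platform annotation table (13513 with 1 gene, 503 with several, 8794 not listed), of which 13436 matched a locus in RefSeq's TAIR10.1 table, used for names and gene order only. The symbols of all 9 members were the same in both tables. Sequences of the members were not used here.

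Groups and lots came from the labels. The labels number the lots, so the lot pairs arrays across groups: deviations from the group mean of arrays of the same lot correlated at 0.0715 to 0.334 over the pairs compared. The members and lists were chosen with earlier results of these data known. The rule for naming took every member, list members that passed (up to 4 per list and contrast by smallest p) and the 3 nearest profiles of each called member. XERICO, a further ligase gene that passed, and the values of COR15A, WRKY53, EFR, SK15 and ATL63 where they did not pass were added after their values were seen. UBC16 with both agents against dexamethasone was also named outside that rule. PAC, a plastid protein gene that the pattern for proteasome subunits also matched, was removed. Python 3.11.15, pandas 2.3.3, numpy 2.4.6 and matplotlib 3.10.9 were used for names and plots. Alternatives were pseudocounts of 1 and 50, scaling to equal medians, quantile normalisation, a mean intensity of at least 30, no intensity trend, the lot as a replicate block, and leaving out each array.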

Additional observations from a re-analysis of the deposited data

How the results depend on the processing

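The count of PUB genes called with dexamethasone was 1 and became 0 with arrays scaled to equal medians and without an intensity trend, and it ran from 0 to 1 over the 12 fits without 1 array, the lost member being PUB23 each time. The counts stayed at 0 with both agents against cycloheximide, in 35S::LFY and for the difference in response, at 5 with cycloheximide and at 1 in mock LEAFY-GR against Landsberg erecta, and ran from 5 to 7 for both agents against dexamethasone. With the lot as a replicate block PUB23 kept its dexamethasone call (adjusted p = 0.0208), and the block changed no member's call. Over single members and contrasts, 431 of 434 values under the 7 other settings and 746 of 756 without 1 array stayed on their side of the threshold, the others lost a call, and no call changed direction. Values never called changed sign in 8 and 30 cases. PUB15 gave no value at a mean intensity of at least 30. The counts over all probe sets behind the percentages moved further. They ran from 61 to 142 (33 to 137 without 1 array) around 108 with dexamethasone, 25 to 56 (20 to 51) around 44 with both agents against cycloheximide, and 32 to 87 (1 to 61) around 67 in 35S::LFY. For the difference they ran from 2 to 7 (0 to 2) around 7, and for mock against Landsberg erecta from 1371 to 2267 (731 to 1976) around 1779. Where an array was left out, its group had a lone array assumed to vary like the others. The cause of the other changes was not tested. Probe sets near the pseudocount, PUB15 among them, allow little to be said of their changes.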

Other observations

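The genes on either side of the PUB genes were read after the values above were seen, taking up to 2 protein-coding neighbours on each side in RefSeq's order, of which 21 had a named probe set. Of these, 2 rose with dexamethasone and 0 fell, against 0.475% of all probe sets called. Both were also higher when cycloheximide was present. AT3G52470 lies 2 genes from PUB22 and read 1114.5 and 1033.3 with dexamethasone (lots 1 and 2) against 376.7 and 356.1 in mock (1.52 ± 0.15 log2, adjusted p = 0.000817). It read 769.7 and 991.2 with both agents against 229 and 278.5 with cycloheximide (1.75 ± 0.15, adjusted p = 0.000408). PUB22 itself was not called in either comparison (-0.33 ± 0.23 and -0.31 ± 0.23). AT3G19390, next to PUB25, read 749.8 and 846.4 with dexamethasone against 328.3 and 365.2 in mock (1.18 ± 0.18, adjusted p = 0.0175). It read 212.7 and 287.1 with both agents against 125.3 and 87.9 with cycloheximide (1.16 ± 0.18, adjusted p = 0.0337). PUB25 was not called there (-0.07 ± 0.31 and 0.36 ± 0.31). AT3G19390 was itself higher in mock LEAFY-GR than in Landsberg erecta (1.65 ± 0.18, adjusted p = 0.000212). In that comparison 2 of the 21 neighbours were called higher and 2 lower, against 4% and 3.82% of all probe sets. The other called higher was AT2G35910, 2 genes from PUB23 (1.24 ± 0.22). Those called lower, AT3G19370 (-1.86 ± 0.35) and AT3G19400 (-0.96 ± 0.25), also flank PUB25. In 35S::LFY, AT3G52470 read 557.4 and 540.8 against 348.7 and 374.9 in Landsberg erecta, without overlap, and did not pass (0.59 ± 0.15, adjusted p = 0.232). Of the 21 neighbours 4 rose and 7 fell with cycloheximide, where 17.2% of all probe sets were called higher and 25.6% lower. There PUB22 and PUB25 stood on other sides of zero from AT3G52470 (-0.52 ± 0.15) and AT3G19390 (-1.63 ± 0.18).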
